A study of Mus musculus with 4 samples.

Results

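Serotonin receptors are the proteins through which cells respond to serotonin, and 10 of their genes were followed across 4 microarrays of mouse prefrontal cortex. The genes were Htr1a, Htr1b, Htr1d, Htr1f, Htr2a, Htr2c, Htr3a, Htr4, Htr5a and Htr7. They were taken by the gene name that the array files give to each probe, and this found 16 of the 56605 non-control probes, for 10 of 27248 named genes. Of these probes, 14 were well above background on all 4 arrays and represented every one of the 10 genes. The other 2, a further probe each of Htr2c and Htr7, were well above background on no array.

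The tissue came from B6J mice aged 3 months, of 2 genotypes, wild-type and Glo1 heterozygous. Glo1 encodes glyoxalase 1, an enzyme that clears methylglyoxal. From weaning on postnatal day 21 the mice ate a diet of starch or of sucrose for about 70 days, so each genotype was measured on each diet and all 4 groups shared strain, age and tissue. Wild-type mice on starch were the study's control. The RNA of 3 mice per group was mixed into 1 pool and labelled with Cy3, and each pool went onto 1 array, so a group had 1 measurement, no difference below has a replicate check, and no p-value is given. The arrays lay on 1 slide, so array position and group cannot be told apart, and in pooled tissue fewer cells of a type and less RNA per cell cannot be told apart either.

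Serotonin reaches the prefrontal cortex through fibres of neurons whose cell bodies lie in the raphe nuclei of the brainstem, and the cortex itself makes the receptors. Htr1a, Htr1b, Htr1d, Htr1f and Htr5a encode receptors that couple to inhibitory G proteins and lower cyclic AMP. Htr2a and Htr2c couple to Gq and phospholipase C, Htr4 and Htr7 couple to Gs and raise cyclic AMP, and Htr3a encodes a subunit of an ion channel opened by serotonin.

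Every value rests on a probe of 60 bases, and the genes differed in where on the transcript those bases lay. For Htr1b and Htr3a the probe that lies further 5′ along the gene is shown whole, and the first 30 bases are shown of the probes that carry the results for Htr1a, Htr2c and Htr7. All are written 5′ to 3′ in the sense of the transcript, with positions on mouse build mm9 as the array files give them. No capitals are used in these probes, since no part of them stands out for the results. Their order below is that of the gene symbols.
Htr1a, chr13:106237236-106237295, plus strand, bases 1 to 30: agagggcatcaaatggttttgcgttatatc
Htr1b, chr9:81525015-81525074, minus strand, bases 1 to 60: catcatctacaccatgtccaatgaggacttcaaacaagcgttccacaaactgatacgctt
Htr2c, chrX:143631655-143631714, plus strand, bases 1 to 30: cgtgcaacagactgccttatattatttcct
Htr3a, chr9:48709008-48709067, minus strand, bases 1 to 60: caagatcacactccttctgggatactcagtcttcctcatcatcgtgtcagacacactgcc
Htr7, chr19:36033339-36033398, minus strand, bases 1 to 30: gtgtacaaattcctgagctgcagattcgct
The Htr1b probe shown begins at base 1085 of the transcript that the files name for it, and a second Htr1b probe, at base 4050 of another named transcript (chr9:81522512-81522571), was the brighter one. The Htr3a probe shown begins at base 976, and its brighter partner at base 1568 of another named transcript (chr9:48707773-48707832).

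Htr1a and Htr7 were the receptors other than Htr4 with more signal on sucrose, by more than the error between spots, in each genotype, Htr7 on its brighter probe only. Their upstream sequences are therefore printed, as the 250 bases before the annotated start from the RefSeq promoter table of build GRCm38.p6, which held 8 of the 10 genes. Capitals mark matches, found on either strand, to 6 motifs. These were GGGCGG (the core of an SP1 site), GCGNGGGCG (an EGR site), the cyclic AMP response element TGACGTCA, the TATA box written as TATAAA, the CCAAT box, and the glucocorticoid receptor's motif arm AGAACA. In the windows shown, no matches overlapped.
Htr1a, chr13:105443443-105443692, plus strand: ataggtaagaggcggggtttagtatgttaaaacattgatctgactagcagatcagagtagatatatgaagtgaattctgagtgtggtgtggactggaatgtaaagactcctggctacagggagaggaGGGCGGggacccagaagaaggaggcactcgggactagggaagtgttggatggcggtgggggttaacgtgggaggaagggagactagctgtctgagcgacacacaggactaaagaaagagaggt
Htr7, chr19:36057361-36057610, minus strand: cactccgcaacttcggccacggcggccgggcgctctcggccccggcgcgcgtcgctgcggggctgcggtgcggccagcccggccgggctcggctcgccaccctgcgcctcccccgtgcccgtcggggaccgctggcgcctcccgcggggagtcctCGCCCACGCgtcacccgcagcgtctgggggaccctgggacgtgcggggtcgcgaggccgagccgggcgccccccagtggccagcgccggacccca
The Htr1a window held 1 GGGCGG match, beginning 123 bases before the start, and this motif was in 32.7% of the 32851 windows of the same length in the table. The Htr7 window held 1 match to GCGNGGGCG on the opposite strand, beginning 95 bases before the start, against 4.7% of all windows. The windows of both genes had no motif in common, and none of the other letters searched was found in either.

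Each array had between 77.6% and 80.2% of its non-control spots well above background, with a 75th percentile of the processed signal between 1780.4 and 1928.9 intensity units and no saturated spot. A level below is a probe's processed signal divided by that percentile. All 8 genes of a list of prefrontal and frontal cortex genes were well above background on every array, and their summed level was 35.4 on the wild-type starch, 44.7 on the wild-type sucrose, 38.2 on the heterozygous starch and 41.3 on the heterozygous sucrose array. The genotype labels could be read in Glo1 itself, whose 3 probes stood at between 66.1% and 68.1% of the wild-type level in heterozygous mice on starch and between 54.8% and 56.3% on sucrose. Markers of other brain regions differed between the arrays as well, and they are given beside the receptors they move with. The error attached to a difference below is the SD expected between 2 spots of the same level, and it leaves out labelling, hybridisation and the mice. It came from 419 probes, controls included, printed at least 10 times on each array, using only those within 1 log2 unit of the level. For the receptor probes used these were few, from 4 (Htr3a's second probe) to 22 (Htr1b's second probe). There were 5 for Htr1a and for each Htr4 probe, so the SDs are themselves rough.

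**Figure D1:**
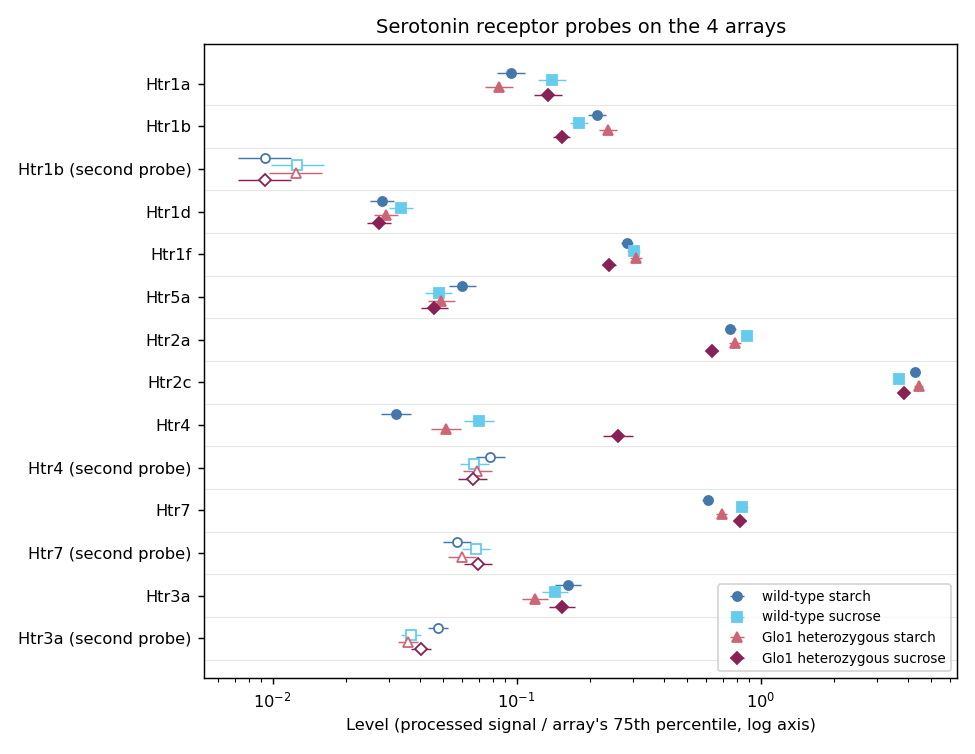
Level of each serotonin receptor probe (processed signal over the array's 75th percentile, log axis) on the 4 arrays, with 1 row per probe well above background on all of them. Filled symbols are the probe that represents the gene, open symbols a second probe, and bars the expected SD of a single spot. Htr4 spreads from 0.0322 to 0.26 on the probe that represents it while its second probe stays between 0.066 and 0.0781.

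Most serotonin receptors differed by less than 2-fold between the groups, and Htr4 alone passed 2-fold. Sucrose against starch in wild-type mice put 1 of the 10 receptors past 2-fold, against 1.48% of the 20655 genes measured. In heterozygous mice the same diet comparison again put 1 receptor past 2-fold, against 1.77% of genes. Heterozygous against wild-type gave 0 of 10 on starch (0.813% of genes) and 1 of 10 on sucrose (1.71% of genes), and heterozygous sucrose against wild-type starch gave 1 of 10 (2% of genes). The interaction, taken as the heterozygous diet difference less the wild-type one, passed 2-fold for 1 of 10 receptors and 2.88% of genes. In each of these counts the receptor was Htr4, on 1 of its 2 probes. A gene was read on the probe with the highest mean log2 level over the 4 arrays, and for Htr4 the heterozygous sucrose array decided that choice: the chosen probe was dimmer than the other on both starch arrays (0.0322 against 0.0781 and 0.0514 against 0.0687), about level on wild-type sucrose (0.0705 against 0.067) and brighter on heterozygous sucrose (0.26 against 0.066). The probe was thus picked through the array on which it was high, and on the other probe the counts are 0 of 10. At 1.5-fold, Htr1a and Htr1b joined Htr4 for diet in heterozygous mice, 3 of 10 against 5.57% of genes, and Htr4 passed for genotype on starch, 1 of 10 against 3.97%. With normexp background correction neither Htr1a (0.48) nor Htr1b (-0.55) reached 1.5-fold. Htr1b also fell short as a mean over its probes (-0.53) and on its second probe (-0.42). Genotype on starch fell short for Htr4 with normexp (0.25) and as a mean over probes (0.24). The normexp values include an added offset of 50 intensity units, which by itself shrinks the log2 differences of dim probes. A smaller normexp value therefore does not tell background from offset. Comparisons that use the same array share its error, and the wild-type starch and heterozygous sucrose arrays each enter 3 of the 5 pairwise differences.

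Leaving out Htr4, the receptors' log2 differences lay between -0.32 and 0.55 for diet in wild-type mice, and between -0.63 and 0.66 for diet in heterozygous mice. Differences past the expected spot SD, explained above, were common on these arrays: 8 of 10 receptors and 51.2% of genes for diet in wild-type mice, and 8 of 10 and 43.5% for diet in heterozygous mice. They were 5 of 10 and 45.6% for genotype on starch, 5 of 10 and 40.9% for genotype on sucrose, and 8 of 10 and 55.1% for heterozygous sucrose against wild-type starch. The range without Htr4 was -0.44 to 0.19 for genotype on starch and -0.47 to 0.1 for genotype on sucrose. The median over all 10 receptors was 0.16, -0.09, 0.06 and -0.06 in these 4 comparisons, where the medians of all genes lay between -0.02 and 0. The receptors went in both directions, 6 higher and 4 lower for diet in wild-type mice and 4 higher and 6 lower in heterozygous mice, so these medians do not describe single receptors.

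**Figure D2:**
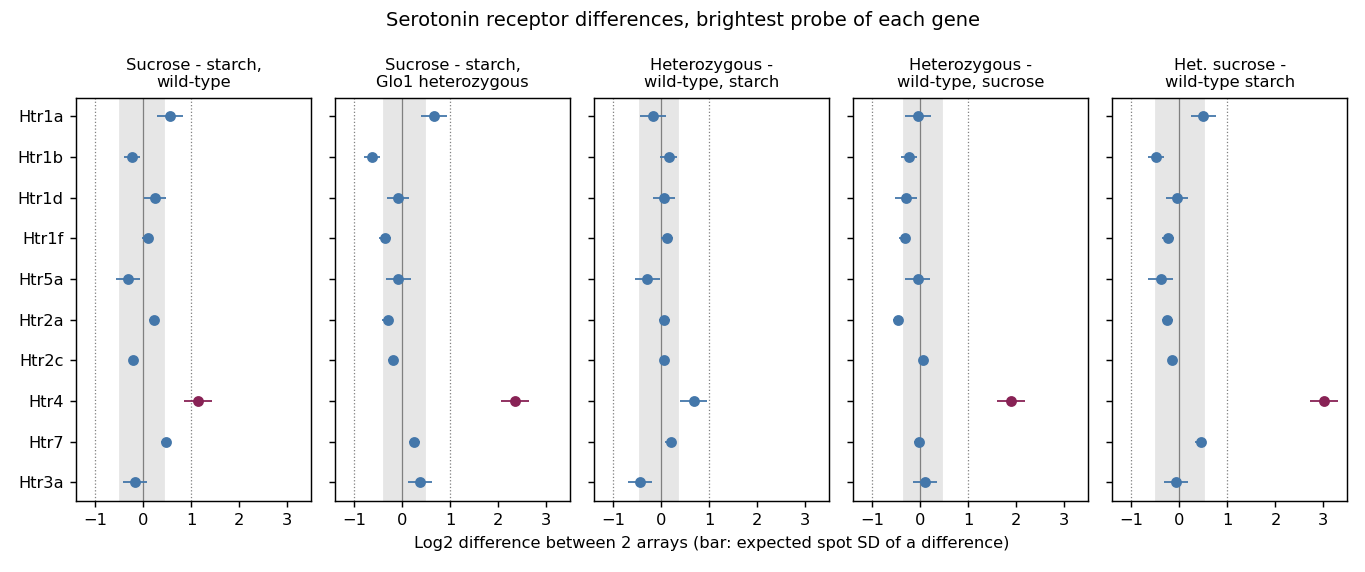
Log2 difference between 2 arrays for the brightest probe of each receptor in the 5 pairwise comparisons, with bars of 1 expected spot SD of a difference. The grey band holds the middle 90% of all genes, dotted lines mark 2-fold, and purple points passed it. Htr4 lies past the line in every panel except genotype on starch, and the other 9 receptors lie between the lines in all 5.

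Htr1a encodes the inhibitory receptor that also serves raphe neurons as an autoreceptor. Its level was 0.0951 on the wild-type starch, 0.139 on the wild-type sucrose, 0.0847 on the heterozygous starch and 0.134 on the heterozygous sucrose array. Both sucrose arrays were above both starch arrays. On the log2 scale the diet difference was 0.55 (1.46-fold) among wild-type and 0.66 (1.59-fold) among heterozygous mice, with an expected spot SD of 0.27. With normexp background correction these were 0.36 and 0.48. The genotype differences were smaller, -0.17 on starch and -0.05 on sucrose, both within that SD. In order of level, the sucrose arrays did not differ from each other beyond the spot SD, nor did the starch arrays, and the step between them was 0.5, or 0.32 with normexp.

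Htr1b encodes the inhibitory receptor found on axon terminals, where it reduces transmitter release. On its brighter probe the level was 0.214 on wild-type starch, 0.181 on wild-type sucrose, 0.237 on heterozygous starch and 0.153 on heterozygous sucrose. Here both starch arrays were above both sucrose arrays, the reverse of Htr1a. The log2 difference of sucrose from starch was -0.24 for wild-type and -0.63 for heterozygous mice, with a spot SD of 0.17. The second probe was near the detection limit, at 0.00927, 0.0126, 0.0125 and 0.00931 in the same order of arrays, with a spot SD of 0.51. It gave a diet difference of 0.44 in wild-type mice and -0.42 in heterozygous mice, so the probes disagreed in sign for wild-type mice and not for heterozygous mice, and both diet differences of the dimmer probe were within its SD. Its interaction was -0.86, past the expected spot SD of 0.73 for an interaction, and that of the brighter probe was -0.39.

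Htr1d and Htr1f encode inhibitory receptors that are targets of the triptan drugs. The Htr1d probe (chr4:135999620-135999679) read 0.0281, 0.0335, 0.0291 and 0.0271 on the wild-type starch, wild-type sucrose, heterozygous starch and heterozygous sucrose arrays. No neighbouring levels in that gene's order differed by more than the spot SD of 0.23, and its largest pairwise difference was -0.3, between genotypes on sucrose, which with normexp background correction was -0.12, within that SD. Its interaction was -0.35, and 0.03 with normexp. The Htr1f probe (chr16:64924583-64924642) read 0.283, 0.302, 0.308 and 0.24 in the same order. The heterozygous sucrose array was the low one, with log2 differences of -0.36 from heterozygous starch and -0.33 from wild-type sucrose and a spot SD of 0.12, and the other 3 arrays lay within that SD of their neighbours. Htr5a, another inhibitory receptor, read 0.0601 on wild-type starch and 0.048, 0.0489 and 0.046 on the others (chr5:28181550-28181609). Only the wild-type starch array stood apart, by 0.3 from its nearest neighbour against a spot SD of 0.26.

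Htr2a encodes the Gq-coupled receptor of cortical pyramidal cells on which hallucinogens act, and its probe lies at chr14:75106454-75106513. Its level was 0.752 on wild-type starch, 0.877 on wild-type sucrose, 0.784 on heterozygous starch and 0.634 on heterozygous sucrose. The sucrose arrays were the highest and the lowest of the 4, and both starch arrays lay between them. The diet difference was 0.22 for wild-type mice and -0.31 for heterozygous mice, with a spot SD of 0.11. Among all genes, 6.38% passed their own spot SD in opposite directions in the genotypes, and among the receptors Htr2a alone did. The interaction was -0.53 and genotype on sucrose -0.47, 1.38-fold. Some marker lists had the same highest and lowest array and others did not. Summed over 7 upper layer genes, the level was 42.0, 43.7, 40.9 and 38.9, and over 11 deep layer genes it was 108.0, 116.0, 112.0 and 106.0. Over the 11 of 12 striatal medium spiny neuron genes measured, the sum was 34.2, 56.5, 52.5 and 29.4, with Isl1 below background on some arrays. The prefrontal and frontal cortex sums given above were lowest on wild-type starch, and those of caudal ganglionic eminence interneurons, given with Htr3a, highest there. The part of these cells in the Htr2a values was not tested.

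Htr2c encodes the other Gq-coupled receptor, which is also abundant in the choroid plexus, the tissue in the ventricles that makes cerebrospinal fluid. Its level was 4.29, 3.7, 4.45 and 3.87 on the wild-type starch, wild-type sucrose, heterozygous starch and heterozygous sucrose arrays. Starch was above sucrose in both genotypes, by small steps of similar size. Diet gave -0.21 for wild-type and -0.2 for heterozygous mice, with a spot SD of 0.09, and genotype gave 0.06 on either diet. The interaction was 0.01, the smallest in size among the 10 receptors. The summed level of 9 choroid plexus markers was 0.933, 2.15, 0.88 and 69.9 in the same order. On heterozygous sucrose, where those markers were far higher, Htr2c was below its heterozygous starch level. The part of choroid plexus in the Htr2c values was not tested.

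Htr7 encodes a Gs-coupled receptor. Its brighter probe read 0.607 on wild-type starch, 0.843 on wild-type sucrose, 0.692 on heterozygous starch and 0.824 on heterozygous sucrose. As for Htr1a, both sucrose arrays were above both starch arrays. Diet gave 0.47 for wild-type and 0.25 for heterozygous mice, with a spot SD of 0.11. This probe begins at base 2902 of the transcript, and a second one at base 1477 (chr19:36034764-36034823) read 0.057, 0.0684, 0.0597 and 0.0695, with diet differences of 0.26 and 0.22 and a spot SD of 0.27. It showed the same direction as the brighter probe in 4 of the 5 pairwise comparisons, the exception being genotype on sucrose, where the differences were -0.03 and 0.02. The prefrontal gene list given above was also higher on sucrose than on starch in both genotypes. The part of that list's cells in the Htr1a and Htr7 values was not tested.

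Over all receptors, 5 of 10 (Htr1a, Htr1b, Htr2c, Htr4 and Htr7) differed between diets in 1 direction in both genotypes by more than their spot SD, where 20% of all genes did. Htr1a, Htr4 and Htr7 were higher on sucrose, and Htr1b and Htr2c were lower. Htr4 is among the 5 on the probe chosen through its high heterozygous sucrose level, and on its other probe both diet differences were within the spot SD. Htr1b and Htr7 are among the 5 on their brighter probes only. With the second probe of each gene that had 2, the count was 2 of 10, Htr1a and Htr2c. The 20% of all genes was counted on brightest probes, so it is not a like share for this count.

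Htr3a encodes the channel subunit that marks a class of cortical interneurons born in the caudal ganglionic eminence. Its brighter probe read 0.162 on wild-type starch, 0.144 on wild-type sucrose, 0.119 on heterozygous starch and 0.154 on heterozygous sucrose. The second probe read 0.0477, 0.0368, 0.036 and 0.0405, and both probes placed the 4 arrays in the same order, wild-type starch highest and heterozygous starch lowest. Genotype on starch gave -0.44 on the brighter and -0.41 on the second probe, with spot SDs of 0.25 and 0.19. The interaction was 0.54 on either probe. The summed level of 11 genes of these interneurons was 150.0, 146.0, 142.0 and 140.0, of which Cck alone made up 114.0, 114.0, 109.0 and 108.0. Of the 11, 3 passed 2-fold in a pairwise comparison, against 3.95% of all genes in any of the 5. Calb2 read 0.436, 0.144, 0.384 and 0.321, and Sp8 read 1.97, 0.522, 1.9 and 0.957, both lowest on wild-type sucrose. Prox1, which the hippocampus list also holds, read 0.241, 0.293, 0.274 and 1.01. Calb2, Sp8 and the list's sum were highest on wild-type starch, as Htr3a was, and had another lowest array. Prox1 had another highest and another lowest array. The part of these cells in the Htr3a values was not tested.

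Htr4 encodes a Gs-coupled receptor, and it gave the widest range of the 10, at 8.07-fold, on the probe at base 4459 of the transcript (chr18:62627259-62627318). That probe read 0.0322 on wild-type starch, 0.0705 on wild-type sucrose, 0.0514 on heterozygous starch and 0.26 on heterozygous sucrose. The heterozygous sucrose array stood highest, and every step in the order of the 4 levels was larger than the spot SD of 0.29. Sucrose was above starch by 1.13 in wild-type mice (2.19-fold) and by 2.34 in heterozygous mice (5.06-fold). Heterozygous was above wild-type by 0.67 on starch (1.59-fold) and by 1.88 on sucrose (3.69-fold), and the interaction was 1.21. With a normexp background correction the wild-type diet difference was 0.52, under 2-fold, the heterozygous one 1.74, and genotype 0.25 on starch and 1.46 on sucrose. The widest difference, heterozygous sucrose against wild-type starch, was 3.01, and it fell to 1.98 with normexp and to 1.39 as the mean over probes.

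The other Htr4 probe did not show this. It begins at base 624 of the transcript (chr18:62587736-62587795), 39523 bases away in the genome, and it read 0.0781, 0.067, 0.0687 and 0.066 in the same order of arrays. No neighbouring levels differed by more than the spot SD of 0.28. Its diet differences were -0.22 and -0.06, and its genotype differences -0.19 on starch and -0.02 on sucrose. The probes had opposite signs in 5 of the 5 pairwise comparisons, and they differed by 2.4 on the log2 scale for diet in heterozygous mice. With the second probe in place of the first, 0 of 10 receptors passed 2-fold in any comparison. Htr4 was thus higher on sucrose on the probe nearer the transcript's 3′ end and not on the other, and which transcripts carried that end was not measured.

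Markers of other brain tissues were also highest on the heterozygous sucrose array. Of 9 choroid plexus markers measured, 8 were at least 2-fold higher on sucrose than on starch in heterozygous mice, against 1.29% of all genes. The ninth, Cldn2, differed by 0.63. Ttr, the transport protein transthyretin, read 0.259, 1.42, 0.101 and 58.7 on the 4 arrays. Slc4a5 was well above background on 2 arrays and is not in the sum. Of 5 ependyma markers, 4 were 2-fold higher in the same comparison, with sums of 1.62, 1.28, 1.31 and 3.46, and Tmem212 was not above background on every array. Of 7 hippocampus markers, 4 were 2-fold higher (Prox1, Fibcd1, Lct and Dsp), with sums of 15.1, 16.3, 17.1 and 23.6. The ependyma and hippocampus counts stand against the same 1.29% of all genes. Lct read 0.173, 0.364, 0.156 and 1.87, and Dsp, a gene of dentate granule cells, read 0.0147, 0.0236, 0.0181 and 0.416. Apart from Slc4a5 and Tmem212, the markers of these 3 lists were well above background on all 4 arrays. The part of these tissues in the Htr4 values was not tested.

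**Figure D3:**
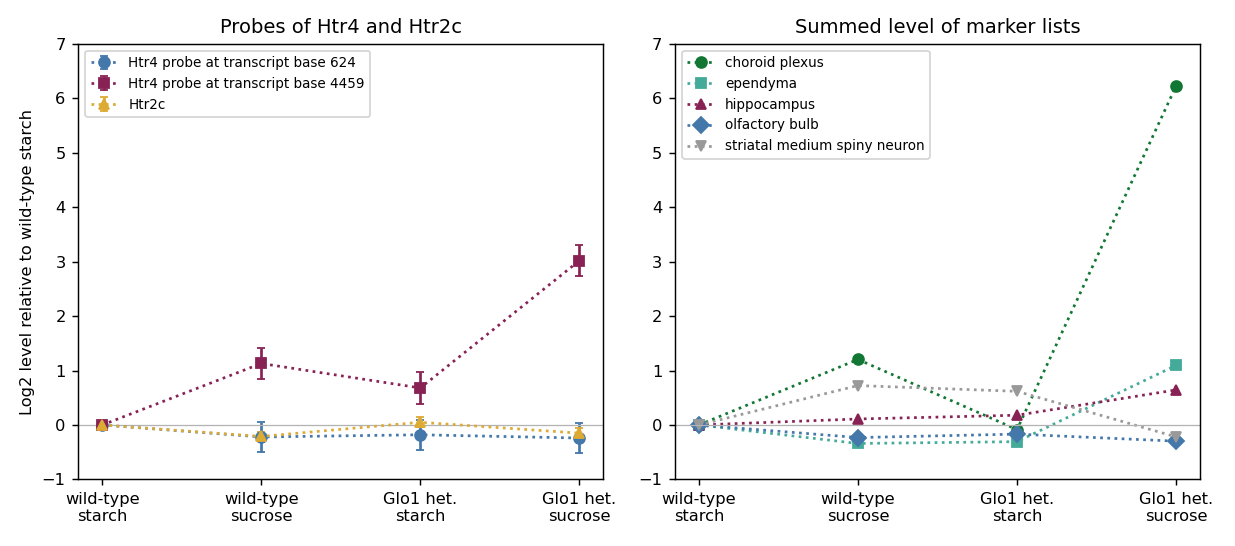
Left, log2 level relative to the wild-type starch array of both Htr4 probes and of Htr2c, with bars of 1 expected spot SD of a difference. Right, log2 of the summed level of 5 marker lists relative to the same array, on the same axis. The Htr4 probe at base 4459 and the choroid plexus sum are both highest on heterozygous sucrose, at 0.26 and 69.9 before scaling, while the Htr4 probe at base 624 and Htr2c stay near 0.

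The genes whose pattern over the 4 arrays was most like that of the Htr4 probe were found by the root mean square distance between centred log2 levels over 20654 other genes. They were Popdc3 (distance 0.211), Fam47e (0.227) and C630031E19Rik (0.25). Popdc3 read 0.00875, 0.0146, 0.0154 and 0.0585, and Fam47e 0.0301, 0.0494, 0.0343 and 0.16. No gene lay within 0.1 of Htr4. For Htr1a the nearest were Henmt1, Gm20635 and Gm8154, and 111 genes lay within 0.1. For Htr1b they were Ier5, Trib1 and Cd209f, and 180 genes lay within 0.1. Ier5 and Trib1 are both induced by cell stimulation, and Ier5 read 14.8, 12.8, 16.3 and 10.7 on the 4 arrays. With 4 points per gene, such likeness describes these arrays only.

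Of the 4 other serotonin receptor genes, 3 were measured on all arrays and 2 passed 2-fold in a pairwise comparison, against 3.95% of all genes in any of the 5. Htr5b, the sister gene of Htr5a, read 0.154 on wild-type starch, 0.0558 on wild-type sucrose, 0.137 on heterozygous starch and 0.142 on heterozygous sucrose. The wild-type sucrose array was the low one and the other 3 lay close together. Its diet difference was -1.46 for wild-type and 0.05 for heterozygous mice, with a spot SD of 0.26. Of 8 olfactory bulb markers, 6 were at least 2-fold lower on sucrose in wild-type mice (0.992% of all genes) and 2 in heterozygous mice (0.479% of all genes). Eomes, a marker of the bulb's projection neurons, read 0.403, 0.0449, 0.458 and 0.277. The summed level of that list, in which Gng13 and Lhx2 weigh most, was 39.2, 33.4, 34.9 and 31.9, and its part in the Htr5b values was not tested.

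Htr2b, the Gq-coupled receptor known from heart valves and smooth muscle, was lower on sucrose on both of its dim probes. The probe with the higher mean log2 level, which was brighter on the sucrose arrays only, read 0.0251, 0.0165, 0.0196 and 0.0121, with diet differences of -0.6 (wild-type) and -0.69 (heterozygous) and a spot SD of 0.38. This probe passed 2-fold in 1 comparison, heterozygous sucrose against wild-type starch, at -1.05. The other read 0.0334, 0.00768, 0.0327 and 0.00862, with differences of -2.12 and -1.93 and a spot SD of 0.43. The probes thus shared the direction and differed in size. Over 6 microglia and blood genes, dominated by the haemoglobin gene Hba-a1, the summed level was 126.0, 68.1, 108.0 and 74.0, lower on sucrose in both genotypes as well, and its part in the Htr2b values was not tested. Htr6, a Gs-coupled receptor, did not pass 2-fold on either of its probes, and Htr3b, the partner subunit of Htr3a, was well above background on 1 array.

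Of the genes that make, carry and break down serotonin, 1 of 12 measured passed 2-fold in any pairwise comparison, against 3.95% of all genes. It was Slc29a4, a low-affinity monoamine transporter that is also made in the choroid plexus, which read 1.11, 1.29, 1.23 and 3.17. Heterozygous sucrose was high, by 1.37 over heterozygous starch and 1.3 over wild-type sucrose, with a spot SD of 0.11, and the wild-type diet difference was 0.21. The choroid plexus sums given above had the same highest array, and their part in this value was not tested. Maoa and Maob, which degrade serotonin, stayed between 0.753 and 0.93 and between 1.9 and 2.04. Tph2, which makes serotonin in raphe neurons, was dim at 0.0141, 0.0225, 0.0125 and 0.0189, with diet differences of 0.68 (wild-type) and 0.6 (heterozygous) and a spot SD of 0.43. Slc6a4, the serotonin transporter, was well above background on 2 arrays. The remaining genes Tph1, Ddc, Gch1, Pts, Qdpr, Slc18a2, Slc22a3 and Fev did not pass 2-fold, and the widest of their differences was 0.92, for Slc22a3 on sucrose in wild-type mice.

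Downstream of the receptors, 0 of 33 genes of G proteins, adenylyl cyclases, phospholipases, potassium channels and receptor partners passed 2-fold in any pairwise comparison, near the 3.95% of all genes that did. Their median diet difference was 0.05 (wild-type) and -0.02 (heterozygous). Among other amine receptors, 0 of 9 adrenergic and 0 of 4 histamine receptors passed 2-fold, and 1 of 5 muscarinic receptors did, against the same 3.95%. That was Chrm5, at 0.0207, 0.024, 0.0107 and 0.025, with a diet difference of 1.23 in heterozygous mice.

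Of 5 dopamine receptors, 4 passed 2-fold in some pairwise comparison, against 3.95% of all genes. Drd1 read 0.72, 1.97, 1.71 and 0.706, high on wild-type sucrose and heterozygous starch and low on the others. Drd2 was dim at 0.0282, 0.0349, 0.0242 and 0.0139. Drd3 was highest on wild-type starch, at 0.0587 against 0.0119, 0.0101 and 0.0105. Drd5, a Gs-coupled receptor like Drd1, read 0.26, 0.445, 0.253 and 0.74, and its highest array was the one on which the Htr4 probe at base 4459 was highest. Drd1 and Drd2 are themselves in the striatal list, whose sums given above were high on the same arrays as Drd1. The part of striatal cells in these values was not tested.

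**Figure D4:**
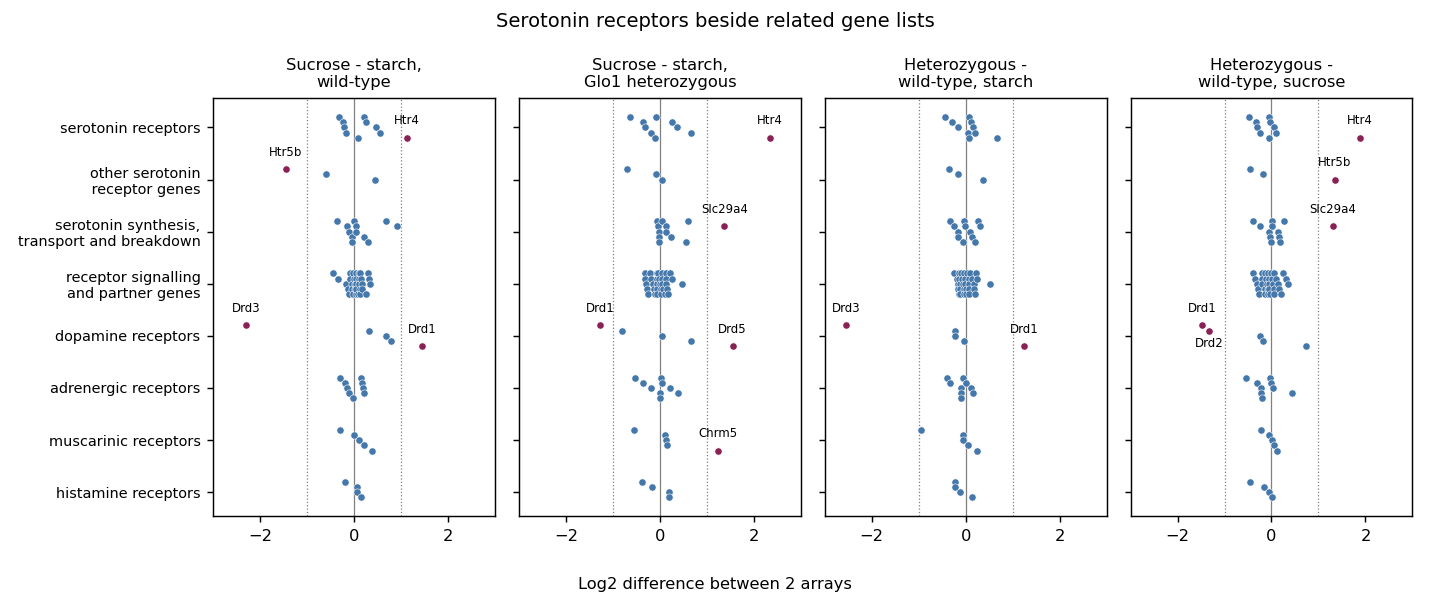
Log2 difference between 2 arrays for each measured gene of the serotonin receptors and 7 related lists, in the diet comparisons and the genotype comparisons. Dotted lines mark 2-fold and genes past them are named. Htr4 is the only one of the 10 receptors named, and the 33 signalling and partner genes all lie between the lines.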

How the data were processed

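Groups came from the sample labels. The deposited intensity values were read from 1-colour scanner files made with Agilent Feature Extraction 11.5.1.1, per the submitters' processing notes, which per the file headers had already subtracted background and corrected trends within an array. The authors also deposited 1 ratio per spot, equal on comparison to that signal over the array's 75th percentile.

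From these, log2 of processed signal over the 75th percentile of 59305 non-control spots was computed, without the spots marked as outliers, which included no receptor spot. A gene was its brightest probe, by mean log2 level over the arrays, among the 42094 well above background on all 4 arrays. Comparisons are differences of single arrays, counted at 2-fold, and the number of arrays limits their precision. Alternatives used limma 3.58.1 in R 4.3.3, with an offset of 50 for normexp, and the arithmetic was tested on simulated data. Named genes were all receptors and their probes, all genes of the other-receptor and serotonin lists, genes of signalling and other amine receptor lists past 2-fold, markers beside them, and the 3 most alike genes of the 3 receptors of widest range; other genes were named after their values were seen. The receptors and lists were chosen with earlier results of these data known. Promoters came from RefSeq (GRCm38.p6); exon and UTR annotation on mm9 was not used here.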

Additional observations from a re-analysis of the deposited data

Results flagged for a closer look

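The diet difference of Htr2a had opposite signs in the genotypes. On the log2 scale, sucrose minus starch was 0.22 for wild-type and -0.31 for heterozygous mice, and the difference between these, -0.53, was not tested, since each group had 1 array. Past the spot SD in each genotype, this was seen for 1 of 10 receptors and 6.38% of all genes. Signs were also opposite for Htr1d (0.25 and -0.1), Htr1f (0.09 and -0.36) and Htr3a (-0.17 and 0.37), each within its spot SD in 1 genotype. The Htr3a interaction, 0.54, was of similar size.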

How the results depend on the processing

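Of the 60 receptor differences, 48 kept their sign under all alternatives run: other scalings, quantile and cyclic loess normalization, normexp background, the deposited ratios, the mean over probes, both filters, marked spots kept and, chosen after seeing the data, the second probe of the 4 genes with 2. Under the alternatives chosen first, 5 differences turned sign, none of them past 2-fold: Htr1b diet in wild-type mice (0.1, mean over probes), Htr1d diet in wild-type mice (-0.04), genotype on starch (-0.15) and interaction (0.03) with normexp, and the Htr2c interaction (-0.02, normexp or median scaling). With the second probe 8 turned. All 5 pairwise Htr4 differences did: diet in wild-type (-0.22) and heterozygous mice (-0.06), genotype on starch (-0.19) and on sucrose (-0.02), and heterozygous sucrose against wild-type starch (-0.24). The others were Htr1b diet in wild-type mice (0.44) and heterozygous sucrose against wild-type starch (0.01), and Htr7 genotype on sucrose (0.02). The counts past 2-fold that were 1 became 0 in all 5 comparisons with the second probe. They also became 0 in these 5 when only genes above the median signal were kept, which left 4 receptors and not Htr4. The mean over probes gave 0 for diet in wild-type mice, genotype on sucrose and the interaction, and normexp gave 0 for diet in wild-type mice. At a 1.5-fold threshold, diet in heterozygous mice gave 3 receptors (Htr1a, Htr1b and Htr4, against 5.57% of genes) and genotype on starch gave 1 (Htr4, against 3.97%). The median difference of the receptors ranged over the alternatives from 0.02 to 0.16 for diet in wild-type and -0.25 to -0.05 in heterozygous mice, 0.04 to 0.09 for genotype on starch and -0.18 to -0.04 on sucrose, -0.19 to -0.09 for heterozygous sucrose against wild-type starch, and -0.34 to 0 for the interaction, with no error of its own to set these against. No paired analysis was possible because each group had 1 array, and the causes of these changes were not tested beyond the fewer genes each filter left. Precision is also limited by the signal over background of Htr1b's second probe, Htr1d, Htr2b and Drd2, and of the brighter Htr4 probe on wild-type starch.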
